A study of Homo sapiens with 6 samples.

Results

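HepG2 cells that had received an HNF4A siRNA and then TGF-beta for 24 h were compared with HepG2 cells that had received a control siRNA and no TGF-beta. The comparison rests on 2 of the 6 arrays of the study, siHNF4A at 24 h and siControl at 0 h, chosen by their labels. Another 2 arrays, siHNF4A at 0 h and siControl with TGF-beta for 24 h, give each treatment alone, so 4 arrays enter the question of whether the treatments added up. All cells had been transfected with an siRNA, which directs the breakdown of the transcript it matches, and TGF-beta was given at 3 ng/ml. The remaining 2 arrays carry 1.5 h of TGF-beta after either siRNA and were used only as a check and for the estimate of spread. Each combination was measured on 1 array, so no difference between single arrays has a replicate check, and the labels do not say whether the 6 cultures came from 1 transfection. How many siRNAs against HNF4A were used is not given in the sources used here, and effects on transcripts other than the target cannot be told apart from those on HNF4A. The level of HNF4A was not analysed here. No array of untreated cells at 24 h was used, so TGF-beta and 24 h of further culture cannot be told apart.

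HepG2 is a human hepatoblastoma line that keeps many hepatocyte functions, among them the secretion of plasma proteins. HNF4A is a nuclear receptor that binds DNA as a homodimer and drives genes of lipid, bile acid and drug metabolism and of blood clotting in hepatocytes. TGF-beta binds type II and type I receptors, which phosphorylate SMAD2 and SMAD3. With SMAD4 these enter the nucleus and, together with partners such as the AP-1 proteins of the Jun and Fos families, switch genes on or off, arrest epithelial cells in the cell cycle and raise matrix production. Where both treatments act on a gene independently and by constant factors, their log2 differences add.

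The values are MAS5 signals, intensities of Affymetrix probe sets on a linear scale that each array carries scaled to a common trimmed mean. Signals under 12.9, the median of all signals, were set to that floor before log2 was taken, and 11921 genes with a mean signal above it were tested. Differences are on the log2 scale, where 1 is 2-fold, and "at least" stands before a difference where 1 of its signals was raised to the floor. The combined difference is siHNF4A at 24 h minus siControl at 0 h. The deviation is the combined difference minus the sum of the siRNA difference at 0 h and the TGF-beta difference at 24 h in siControl. It equals the TGF-beta difference in siHNF4A minus that in siControl. A gene is called more than additive where the combined difference and the deviation were both past 2-fold with the same sign, and less than additive where they were past 2-fold with opposite signs. "Rose" and "fell" are kept for genes that passed limma's test of the combined difference over the 6 arrays (adjusted p under 0.05). That fit has 1 residual degree of freedom, the siRNA difference at 1.5 h against 0 h, so its p-values measure a spread that may be technical.

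The siControl 0 h array, the baseline of every difference here, stood apart in a control probe set for the 5' end of a human control transcript, at 8600 against 69.8 to 736.5 on the other arrays. Its GAPDH 3'/5' ratio was 0.888, against 0.946 to 0.977. Correlations of log2 signals between arrays were 0.972 to 0.991. This array enters the sum through both single differences, so any shift of a gene on it moves the deviation. Deviations were therefore also taken with the 1.5 h arrays as the reference. Both versions share the 24 h arrays, so a shift of a gene on either of those moves both alike and this check cannot show it. All 6 HepG2 markers (ALB, AFP, APOA1, SERPINA1, TF and GPC3) were above the floor, with summed signals of 39196 to 47679 on the 4 arrays. Of 15 markers of blood, endothelial and fibroblast cells, 8 were at or under the floor on all 4 arrays, among them PTPRC, CDH5 and COL6A3. Above it on all 4 arrays were 4, HBB, CD14, PECAM1 and PDGFRB. PECAM1 and CD14 read 127.2 and 100.3 on the siControl 24 h array. The summed signals of the 15 were 197 to 384.

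The cells with both treatments differed from baseline at more genes than those with either treatment alone. The combined difference was past 2-fold upward at 734 genes (6.16% of those tested) and downward at 834 (7.0%). The siRNA at 0 h gave 175 higher (1.47%) and 194 lower (1.63%), and TGF-beta in siControl gave 371 higher (3.11%) and 310 lower (2.6%). Neither treatment alone reached 2-fold in the direction of the combined difference at 413 of the 734 higher and 564 of the 834 lower genes. Of these, 198 higher and 221 lower genes had a sum of single differences past 2-fold. In the direction of the combined difference, each of the treatments alone reached 2-fold at 38 higher and 30 lower genes. Only TGF-beta did at 216 and 161, and only the siRNA at 67 and 79. By limma 833 genes rose (6.99%) and 910 fell (7.63%), with the smallest adjusted p at 9.949e-06. That count depends on how the spread is estimated, since limma without the intensity trend called 585 genes and without the filter on dim genes 390, against 1743.

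**Figure D1:**
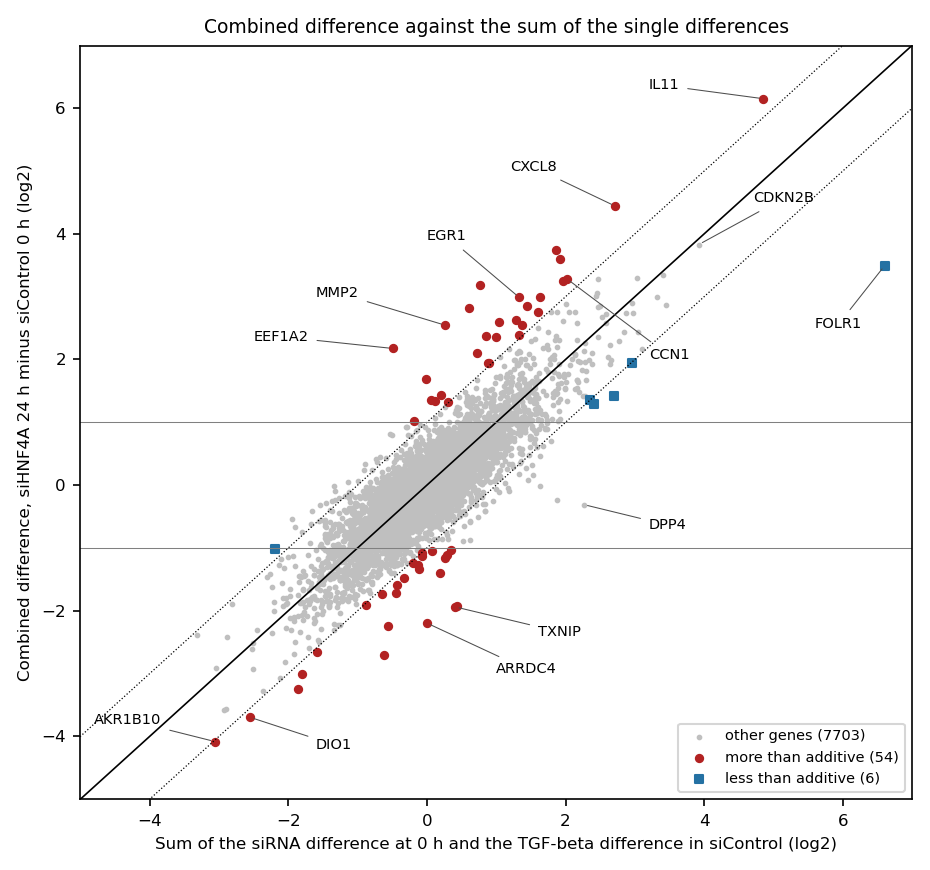
Combined log2 difference (vertical axis) against the sum of the siRNA difference at 0 h and the TGF-beta difference in siControl (horizontal axis) for genes above the floor on all 4 arrays and over 100 on 1 of them. The solid diagonal is additivity and the dotted lines lie 2-fold to either side; 54 genes are more and 6 less than additive, with IL11 at the top (combined 6.15) and FOLR1 far to the right of the diagonal (deviation -3.11).

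Among genes above the floor on all 4 arrays the highest combined differences were in a cytokine, a chemokine and a cell cycle inhibitor. IL11, a cytokine of the IL6 family that signals through gp130, gave signals of 28.5 in siControl at 0 h, 150.3 in siHNF4A at 0 h, 156.5 in siControl at 24 h and 2027 in siHNF4A at 24 h. Either treatment alone gave a like level, and the array with both stood far above the other 3. The single differences of 2.40 and 2.46 add up to less than the combined difference of 6.15, a deviation of 1.30. IL11 rose by limma with 6.23 ± 0.28 (SE; adjusted p = 9.949e-06), and its other, dimmer probe set gave a combined difference of at least 3.42. CXCL8, the neutrophil chemokine interleukin-8, went from 66.0 at baseline to 171.1 with the siRNA, 167.5 with TGF-beta and 1435 with both. Its combined difference was 4.44 and its deviation 1.72, and by limma it rose by 4.65 ± 0.31 (adjusted p = 8.255e-05). With the 1.5 h arrays as the reference the deviations were 0.98 for IL11 and 0.91 for CXCL8.

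The promoters of both genes are shown because each holds a match to the AP-1 motif, TGANTCA, marked in capitals. The windows run from 250 bases before to 50 bases after the gene start in RefSeq (GRCh38.p14), at chr19:55370414-55370713 on the minus strand for IL11 and chr4:73740319-73740618 on the plus strand for CXCL8, and the matches start at -96 and -137.
IL11: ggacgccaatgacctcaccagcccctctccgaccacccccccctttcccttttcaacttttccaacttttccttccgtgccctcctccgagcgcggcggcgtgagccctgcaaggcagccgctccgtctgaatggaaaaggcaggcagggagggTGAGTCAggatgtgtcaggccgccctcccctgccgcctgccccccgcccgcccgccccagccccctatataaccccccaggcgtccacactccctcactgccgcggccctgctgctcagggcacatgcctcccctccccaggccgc
CXCL8: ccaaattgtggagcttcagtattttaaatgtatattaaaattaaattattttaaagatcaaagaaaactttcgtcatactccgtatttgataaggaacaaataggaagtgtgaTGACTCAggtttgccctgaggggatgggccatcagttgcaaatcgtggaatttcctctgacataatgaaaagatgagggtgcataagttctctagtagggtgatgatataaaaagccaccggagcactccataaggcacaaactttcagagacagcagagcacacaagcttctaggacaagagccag
Searched on both strands, the motif was in 7.76% of 27305 RefSeq promoters of this length and in 4.44% of 9736 promoters of tested genes. It was in 39 of 573 promoters of genes with a combined difference past 2-fold upward (6.81%) and in 16 of 668 of those downward (2.4%). Of the higher genes that were more than additive, 10 of 55 promoters held it (18.2%). Of the lower genes that were more than additive, 4 of 60 did (6.67%). Another motif searched, the CAGA box (CAGACA), was in 15 of the same 55 promoters (27.3%). It was in 11.6% of promoters of genes with a combined difference within 2-fold. AP-1 was thus not the only motif more frequent among the higher genes that were more than additive. A match is a description of letters and not of binding.

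CDKN2B, the p15 inhibitor of the cyclin D kinases and a textbook TGF-beta target, was close to additive in the probe set used. Its signals were 24.2 at baseline, 60 with the siRNA, 147.9 with TGF-beta and 344.1 with both. The arrays stood in steps, and the combined difference of 3.83 was within 0.09 of the sum (deviation -0.09). Its dimmer second probe set, under the floor on both 0 h arrays, gave a combined difference of at least 2.24 and a deviation of 1.38. RASD1, a Ras-like protein, read 93.0, 266.6, 266.4 and 914.6 in the same order (combined 3.30, deviation 0.26), and its deviation was 1.09 with the 1.5 h reference. CRABP2, a carrier of retinoic acid, read 14.5, 24.0, 31.7 and 193.7 (combined 3.74, deviation 1.88). CD3D, a chain of the T cell receptor complex, read 39.8, 56.3, 106.6 and 483.4 (combined 3.60, deviation 1.68). In both genes the array with both treatments stood well above the other 3. The CD3D partner CD3E stayed between 12.5 and 18.5 on the 4 arrays, near the floor. CCN1, a matricellular protein, rose from 419.8 at baseline to 4092 with both treatments, against 631.6 and 1131 with either, a combined difference of 3.28 and a deviation of 1.27. KLK6, a secreted serine protease, followed TGF-beta, at 19.2 and 18.2 without it and 112.3 and 186.8 with it (combined 3.28). The remaining 4 of the 12 highest genes above the floor were FOLR1, TNS1, PAEP and PDLIM4, at 3.19 to 3.49. Limma's test of these 12 rests on the arrays that picked them, so it is no separate check. Among genes at the floor on an array, SEMA3C, a semaphorin, was higher by at least 4.60, with 1.87 in its second probe set, and PMEPA1, a membrane protein that holds back TGF-beta signalling, by at least 4.44.

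Among genes above the floor on all 4 arrays AKR1B10 had the lowest combined difference. AKR1B10, an aldo-keto reductase, gave 3139 at baseline, 1394 with the siRNA, 845.4 with TGF-beta and 185.2 with both. The signal was lower with each treatment and lowest with both, at a combined difference of -4.08 and a deviation of -1.02. By limma AKR1B10 fell by 4.03 ± 0.17 (adjusted p = 9.949e-06). DIO1, a deiodinase that activates thyroid hormone, read 430.7, 110.2, 286.8 and 33.2 in the same order. It differed mainly with the siRNA, and its combined difference was -3.70 with a deviation of -1.14. The deviation turned to 0.13 with a floor at the 75th percentile, 80.5, which is above its signal with both treatments. DDC, which makes dopamine and serotonin, read 642.7, 344.5, 157.2 and 53.9 (combined -3.58, deviation -0.64). ADH4, an alcohol dehydrogenase, read 652.4, 349.2, 237.5 and 66.9 (combined -3.29, deviation -0.93), and its second probe set gave -1.97 and 0.09. Both fell in steps on all 4 arrays. FABP1, the liver fatty acid binding protein, read 1049, 386.4, 813.8 and 129.8 (combined -3.01, deviation -1.21), and its dimmer second probe set gave -1.35 and 0.14. CPN2, a carboxypeptidase subunit, read 185.9, 145.1, 65.7 and 19.6 (combined -3.25). SOAT2, which esterifies cholesterol, read 259.4, 94.7, 172.1 and 36.7 (combined -2.82). ERP27, E2F2, ZNF367 and HLA-F-AS1 completed the 12 lowest, with -3.06 to -2.70, and LEAP2 follows. Limma's test of these 12, too, rests on the arrays that picked them and is no separate check. At or under the floor with both treatments were the aldehyde dehydrogenase ALDH8A1, the glutathione transferase GSTA1 and the fatty acid hydroxylase CYP4F3, with combined differences of -4.02, -3.99 and -3.54 or lower, and all 3 fell by limma. The second GSTA1 probe set, at 40.1, 26.6, 27.2 and 27.5, gave -0.54.

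LEAP2, a liver-made antimicrobial peptide that blocks the ghrelin receptor, went from 159.3 at baseline to 60.4 with the siRNA, 56.5 with TGF-beta and 13.4 with both. The single differences were -1.40 and -1.50 and the combined difference -3.57, with a deviation of -0.68, or -1.10 with the 1.5 h reference. Its promoter is shown because it holds CAAAGTCC, a match to CAAAGTNC, letters of the HNF4A binding motif, in capitals from -190 (RefSeq, GRCh38.p14, chr5:132873418-132873717, plus strand).
LEAP2: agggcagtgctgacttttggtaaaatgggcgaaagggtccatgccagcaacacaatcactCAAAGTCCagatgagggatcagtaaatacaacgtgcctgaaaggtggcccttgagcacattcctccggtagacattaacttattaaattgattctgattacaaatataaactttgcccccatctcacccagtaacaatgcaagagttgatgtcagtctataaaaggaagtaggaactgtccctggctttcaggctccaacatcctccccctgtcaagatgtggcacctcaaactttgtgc
CAAAGTNC, on either strand, was in 2.55% of the tested genes' promoters, in 4.04% of those with a combined difference past 2-fold downward and in 2.09% of those upward.

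Deviations from additivity were past 2-fold at 716 genes, 352 above the sum (2.95%) and 364 below it (3.05%). Limma's deviation is the siRNA difference at 24 h minus its mean at 0 h and 1.5 h, and not minus that at 0 h alone. No gene passed limma's test of it (0.0%). The smallest adjusted p was 0.07813, and 541 genes had an unadjusted p under 0.05, against 596 that 11921 tests give by chance alone. Taken at 1.5 h against 0 h, the TGF-beta difference in siHNF4A minus that in siControl was past 2-fold at 775 genes (6.5%, against 6.01% at 24 h). Dim genes held many of the deviations, since 302 of the 716 had a signal at or under the floor on 1 or more of the 4 arrays. Among the 7763 genes above it on all 4 and over 100 on 1, 128 deviations were past 2-fold (1.65%), against 184 at 1.5 h (2.37%). The central 95% of these deviations lay between -0.76 and 0.70 at 24 h and between -0.94 and 0.68 at 1.5 h. Most of the brighter genes thus kept within 2-fold of the sum, and a deviation of a single gene below is a description of 4 arrays.

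**Figure D2:**
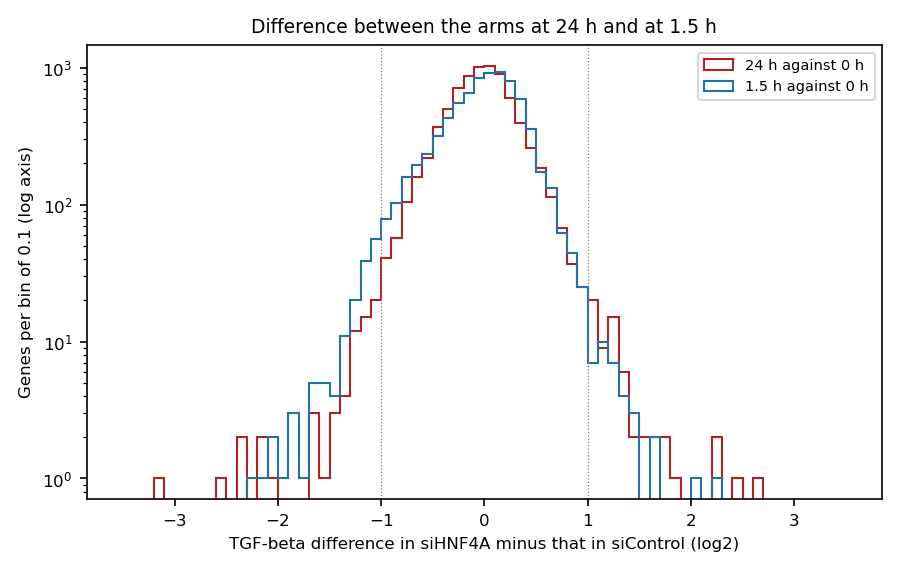
Number of genes (vertical log axis, bins of 0.1) by the TGF-beta difference in siHNF4A minus that in siControl (log2), at 24 h and at 1.5 h against 0 h, for genes above the floor on all 4 arrays and over 100 on 1. Past the dotted lines at 2-fold lie 128 genes at 24 h and 184 at 1.5 h.

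The balance of more and less than additive genes depends on how genes are picked. Among genes past 2-fold in the combined difference, 151 were more than additive (77 higher and 74 lower) and 37 less (21 higher and 16 lower). Among the 1981 genes whose sum was past 2-fold, 33 deviated past 2-fold with the sign of the sum and 392 against it. The combined difference contains the deviation, and the sum contains it with the opposite sign, so each choice tilts the count its own way and neither shows a preponderance. Of the brighter genes, 54 were more and 6 less than additive by the combined difference, and 19 and 38 by the sum.

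The deviation with the smallest adjusted p belonged to TXNIP, an arrestin-like protein that binds thioredoxin and restrains glucose uptake. Its signals were 640.1 at baseline, 1054 with the siRNA, 515.4 with TGF-beta and 166.9 with both. The siRNA array stood highest and the array with both lowest, so the combined difference of -1.94 had the opposite sign to the sum, 0.41. The deviation was -2.35, or -2.21 with the 1.5 h arrays as the reference, and -1.80 and -1.90 in the gene's other probe sets. By limma it was -2.28 ± 0.25 (adjusted p = 0.07813, and 8.65e-11 to 0.8195 over 10 other settings). ARRDC4, the related arrestin-domain gene, read 97.6, 181.0, 52.5 and 21.3 in the same order (combined -2.20, deviation -2.19). Both genes are known targets of the glucose-sensing factors MondoA and ChREBP, which bind a pair of E-box-like blocks. The TXNIP promoter (RefSeq, GRCh38.p14, chr1:145996530-145996829, minus strand) holds one match to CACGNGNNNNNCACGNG, from -88, in capitals.
TXNIP: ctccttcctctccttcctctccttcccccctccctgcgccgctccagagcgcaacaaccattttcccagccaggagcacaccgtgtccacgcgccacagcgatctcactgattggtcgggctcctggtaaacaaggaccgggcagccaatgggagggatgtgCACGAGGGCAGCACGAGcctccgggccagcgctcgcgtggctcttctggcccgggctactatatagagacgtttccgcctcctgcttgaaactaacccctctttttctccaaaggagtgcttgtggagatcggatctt
That pair was in 0.0732% of all promoters and in 16 of the tested genes' (0.164%), and the letters were not found in the ARRDC4 window.

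**Figure D3:**
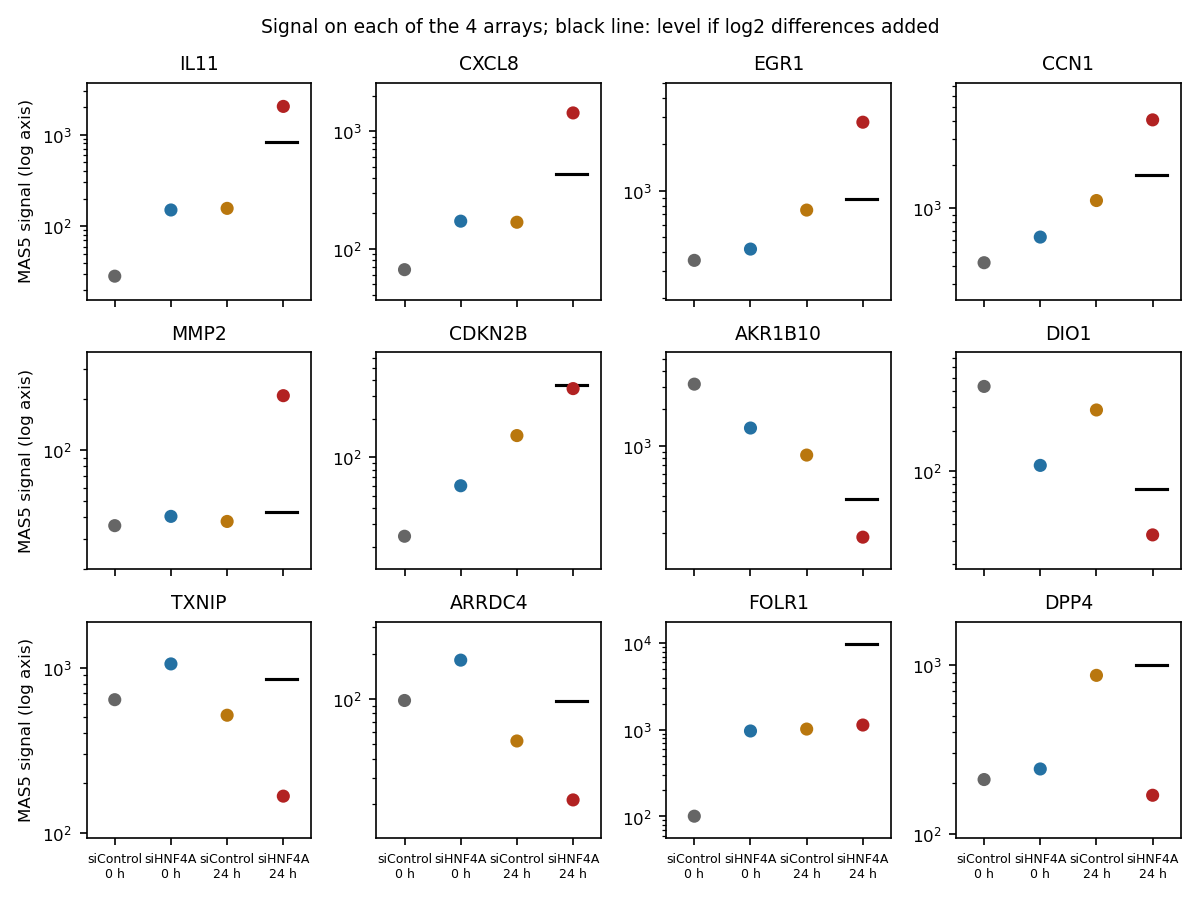
MAS5 signal (log axis) of 12 genes on the 4 arrays, with the level that added log2 differences would give at siHNF4A 24 h as a black line. The point for both treatments lies above the line for IL11, CXCL8, EGR1, CCN1 and MMP2, near it for CDKN2B, and below it for AKR1B10, DIO1, TXNIP, ARRDC4, FOLR1 and DPP4.

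Other genes stood apart mainly on the array with both treatments. MMP2, a gelatinase, read 35.8, 40.6, 37.9 and 209.0, so the 3 other arrays were close together and the combined difference was 2.55 with a deviation of 2.28. Its dim second probe set gave -0.39. TFF1, a trefoil peptide, read 42.9, 39.7, 70.8 and 302.7 (combined 2.82, deviation 2.21). EEF1A2, a translation elongation factor, read 26.1, 29.2, 16.6 and 117.9 (combined 2.18, deviation 2.67), and PDLIM4 read 27.7, 22.3, 58.7 and 252.4 (combined 3.19, deviation 2.42). MMP2 and EEF1A2 stood high on the array with both alone, while TFF1 and PDLIM4 were also above baseline with TGF-beta alone. Other probe sets of PDLIM4 gave combined differences of at least 2.91 and 0.44, with deviations of 1.19 and 0.09. In the other direction PKDCC, a secreted protein kinase, read 226.5, 283.0, 245.8 and 59.5 (combined -1.93, deviation -2.37), and the antisense RNA HLA-F-AS1 read 101.0, 80.6, 82.0 and 15.5 (combined -2.70, deviation -2.08). DPP4, a membrane peptidase that cleaves incretins, was chosen after its values were seen. It read 210.2, 242.8, 871.5 and 169.6, so the difference with TGF-beta in siControl (2.05) had no counterpart in siHNF4A (-0.52). Its deviation was -2.57, and by limma -2.18 ± 0.35 (adjusted p = 0.4076, and 9.172e-09 to 0.9994 over 11 other settings). The deviation was -1.38 with its probe sets averaged and -1.79 with the 1.5 h reference.

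Several genes reached 2-fold with both treatments though neither alone did. DUSP1, a phosphatase of MAP kinases, read 271.0, 430.2, 462.6 and 1958 (combined 2.85, deviation 1.42), with deviations of 1.64 and -1.34 in its dim other probe sets. PKIB, an inhibitor of protein kinase A, read 24.1, 45.5, 39.7 and 191.9 (combined 2.99, deviation 1.36). CLDN6, a tight junction claudin, read 58.7, 113.9, 101.9 and 317.9 (combined 2.44, deviation 0.69). CIDEB, a lipid droplet protein of hepatocytes, read 725.3, 405.7, 431.0 and 115.1 (combined -2.66, deviation -1.07). E2F8, a cell cycle transcription factor, read 135.8, 70, 70.1 and 24.1 (combined -2.49, deviation -0.58). For CLDN6 and E2F8 steps in the same direction added to most of the combined difference.

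For 29 of the 37 less than additive genes the 3 arrays other than siControl at 0 h were within 1.5-fold of one another. The way they were picked favours a baseline that stands apart. It needs a baseline past 2-fold from the array with both treatments and from at least 1 array with a single treatment. Raising signals to the floor also makes arrays alike, and 18 of the 29 had a signal at the floor, as had 20 of the 37. FOLR1, a folate receptor, was above the floor on all 4 arrays, at 100.7 at baseline and 968.5, 1019 and 1135 on the other 3 (combined 3.49, deviation -3.11). On the 1.5 h arrays it read 617.3 in siControl and 1215 in siHNF4A, and the deviation with these as the reference was -0.82. Its second probe set was under the floor on both arrays of the combined difference, at 12.8 and 7.1, and so could not show one. FILIP1L, a filamin-interacting protein, read 293.6, 604.3, 1112 and 1136 (combined 1.95, deviation -1.01), and the deviation was -1.0 with the 1.5 h reference. DRAM1, a lysosomal protein of autophagy, read 177.9, 370.9, 436.7 and 453.1 (combined 1.35, deviation -1.01, or -0.53 with that reference). Short of the 2-fold limit, and so just outside the 37, were other genes whose deviation opposed the combined difference. MAT1A, the liver enzyme that makes S-adenosylmethionine, read 135.1, 49.4, 37.1 and 25.7 (combined -2.39, deviation 0.92), and MYLK, a myosin light chain kinase, read 678.0, 313.8, 305.1 and 254.6 (combined -1.41, deviation 0.85). A second MYLK probe set gave -0.59 and 0.37.

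At 71 genes both single differences were past 1.5-fold with opposite signs. At 58 of these (81.7%) the combined difference was within 2-fold, a share no larger than the 86.8% of all genes tested. TUB, which encodes tubby, read 66.9 at baseline, 154.7 with the siRNA, 32.3 with TGF-beta and 55.8 with both (combined -0.26). IFITM1, an antiviral membrane protein, read 83.4, 42.9, 251.2 and 114.0 (combined 0.45). CD14, the lipopolysaccharide co-receptor, read 26.4, 13.9, 100.3 and 25.3 (combined -0.06, deviation -1.06). In these 3 examples the array with both lay closer to baseline than the array with TGF-beta alone.

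By gene group, immediate-early and ERK-feedback genes stood furthest above the sum. Of 20 measured members 13 were past 2-fold higher and none lower, against 6.16% higher of all genes. By limma 15 rose, against 6.99% of all genes. TGF-beta alone gave 5 past 2-fold and the siRNA alone none. The median combined difference was 1.39 and the median sum 0.79, against -0.07 and -0.04 over all genes. All 20 deviations were above 0, against 47.4% of all genes, with a median of 0.62. With the 1.5 h arrays as the reference 18 of 20 were above 0. EGR1, a zinc finger factor, read 351.5, 416.3, 747.0 and 2789 (combined 2.99, deviation 1.66), and rose by limma (3.00 ± 0.19, adjusted p = 6.834e-05). Other EGR1 probe sets gave combined differences of 2.61 and 1.69, with deviations of 2.68 and 0.60. The deviation of the EGR1 probe set used was 1.64 ± 0.24 by limma (adjusted p = 0.2726, and 2.398e-05 to 0.9898 over 10 other settings). JUNB, a Jun-family subunit of AP-1, read 35.5, 59.8, 115.6 and 295.9 (combined 3.06, deviation 0.60), but -0.23 against the 1.5 h array, where it was already high. FOS read 17.3, 33.3, 13.5 and 83.8 (combined 2.28, deviation 1.69), and EGR3 was at least 3.16 higher. The MAP kinase phosphatase DUSP5 read 84.0, 102.7, 137.0 and 431.2 (combined 2.36, deviation 1.36), and SPRY4, a Sprouty inhibitor of ERK signalling, read 206.8, 226.3, 311.1 and 890.9 (combined 2.11, deviation 1.39). DUSP4, FOSL1, JUND, FOSL2 and SPRY2 did not pass.

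**Figure D4:**
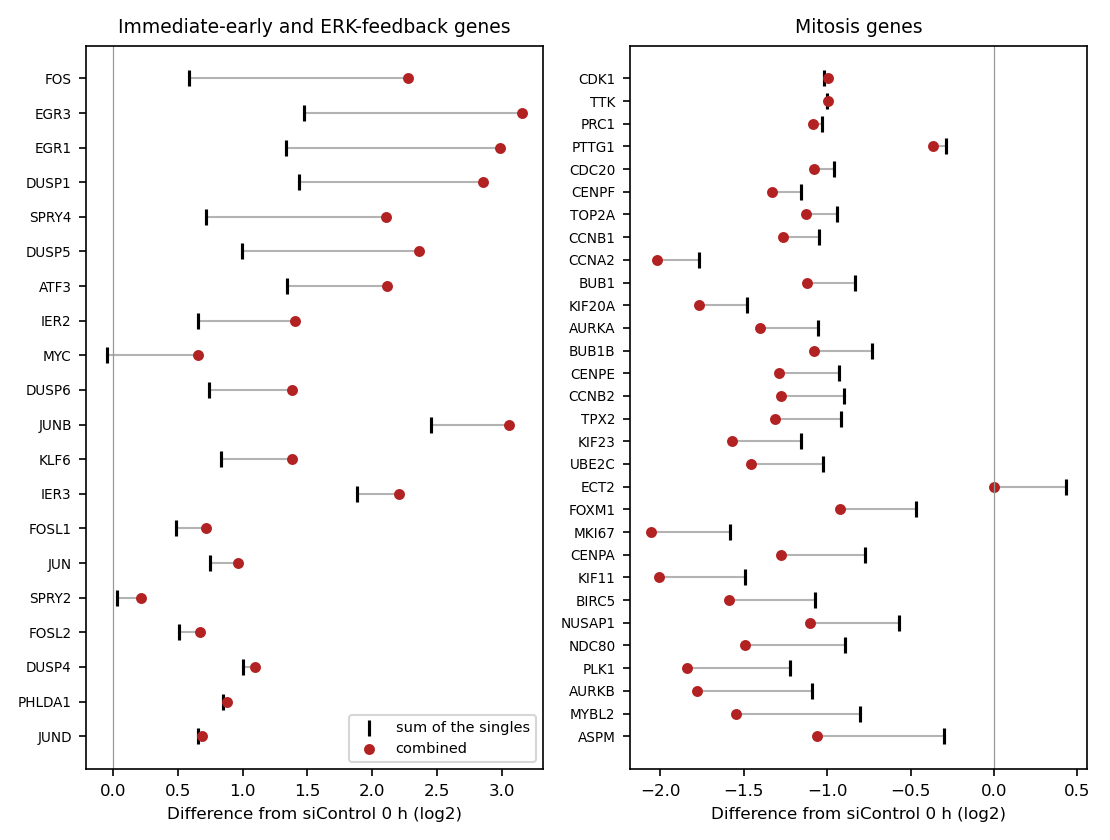
Combined difference (red points) and sum of the single differences (black bars) on the log2 axis for 20 immediate-early genes and 30 mitosis genes, ordered by deviation. All 20 immediate-early points lie to the right of their bars and 28 of 30 mitosis points to the left.

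Of 29 TGF-beta feedback genes and targets 16 were past 2-fold higher and 1 lower, against 6.16% and 7.0% of all genes. By limma 18 rose and 1 fell, against 6.99% and 7.63%. The median combined difference was 1.11, the median sum 1.07 and the median deviation 0.19. Of the 29 deviations 20 were above 0, against 47.4% of all genes, and 24 were with the 1.5 h reference. They were past 1.5-fold above the sum at 8 genes and below it at 1, against 1050 and 1245 of all 11921 genes. SKIL, a Smad co-repressor, read 464.9, 487.6, 928.5 and 1005 (combined 1.11, deviation 0.05). Its dimmer probe sets gave deviations of 1.76 (combined 2.24) and 0.40 (combined 1.08). SMAD7, the inhibitory Smad, read 309.4, 316.3, 222.9 and 260.5, a combined difference of -0.25 that did not pass limma's test (adjusted p = 0.4347). ID1, a helix-loop-helix inhibitor, read 6072, 5440, 6496 and 7324 (combined 0.27). FSTL3, which binds activin, read 55.5, 115.2, 266.6 and 442.6 (combined 3.00, deviation -0.32), and BHLHE40, a transcriptional repressor, read 214.4, 209.0, 763.4 and 1444 (combined 2.75, deviation 0.96). EDN1, the vasoconstrictor endothelin-1, read 85.9, 69.1, 641.8 and 567.8 (combined 2.72). It followed TGF-beta in both siRNA arms. MIXL1, a mesendoderm homeobox factor, fell, at 55.0, 22.6, 30.3 and 15.8 (combined -1.80, deviation 0.34). INHBB, an activin subunit, read 70.3, 136.1, 133.9 and 59.6, so the array with both was the lowest though the signal was higher with each treatment alone (combined -0.24, deviation -2.12). Of 14 receptors and signalling Smads, 3 rose, BMPR2, TGFBR2 and ACVR1, and SMAD9 fell. Of 12 cytokines and inflammatory genes 5 rose. ICAM1, a leukocyte adhesion molecule, read 130.7, 459.8, 182.9 and 414.9 and thus followed the siRNA (combined 1.67, deviation -0.63, and -0.01 and -0.15 in its other probe sets). CCL20, a chemokine, read 2334, 2729, 1756 and 4737 (combined 1.02, deviation 1.21).

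Matrix and cytoskeleton genes were higher. Of 31 measured members 17 were past 2-fold higher and none lower, against 6.16% and 7.0% of all genes. By limma 20 rose and none fell, against 6.99% and 7.63%, and the medians of the combined difference and of the sum were 1.06 and 0.91. TIMP1, an inhibitor of matrix metalloproteinases, read 877.9, 798.9, 2509 and 5155 (combined 2.55, deviation 1.18). COL1A1, a chain of collagen I, read 112.4, 90.9, 508.0 and 757.9 (combined 2.75, deviation 0.88), with combined differences of 2.41 and -0.10 in its other probe sets. The signals used were higher with TGF-beta and stood highest with both treatments. LOXL2, which crosslinks collagen, read 45.9, 80.6, 115.3 and 309.4 (combined 2.75, deviation 0.61). PLAU, urokinase, read 29.6, 31.4, 69.9 and 155.4 (combined 2.39, deviation 1.07). Other members added closely, such as THBS1, thrombospondin-1, at 463.5, 959.5, 983.4 and 1944 (combined 2.07, deviation -0.07), and TAGLN, an actin-binding protein of smooth muscle, at 213.6, 227.5, 895.9 and 1061 (combined 2.31, deviation 0.15). FN1, fibronectin, did not pass, at 7328, 7663, 8902 and 9526.

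Cell cycle genes were lower with a small further step. Of 29 replication genes 23 were past 2-fold lower and none higher, against 7.0% lower of all genes. By limma 27 fell, against 7.63%. TGF-beta alone had 22 of the 29 past 2-fold lower, against 2.6% of all genes. The median combined difference was -1.65, the median sum -1.48 and the median deviation -0.23. CDT1, a licensing factor, read 427.1, 264.2, 212.3 and 70.5 (combined -2.60, deviation -0.90), with -1.54 and 0.36 in its second probe set. MCM2, a helicase subunit, read 1270, 1071, 488.7 and 283.4 (combined -2.16, deviation -0.54). E2F1, the transcription factor that drives many of these genes, fell, from 113.0 to 12.4, a combined difference of -3.13 or lower, whereas its second probe set, at 75, 74.1, 48.6 and 40.6, gave -0.89. Of 30 mitosis genes 25 were past 2-fold lower with both treatments but 6 with TGF-beta alone and none with the siRNA alone. By limma 28 fell. Over all genes 7.0%, 2.6% and 1.63% were lower in these comparisons, and 7.63% fell by limma. Over the 30 mitosis genes the median combined difference was -1.28 and the median sum -0.98. Of these 30 deviations 28 were below 0, against 52.6% of all genes, none was past 2-fold, and 25 were below 0 with the 1.5 h reference. MKI67, the proliferation antigen Ki-67, read 367.1, 276.8, 162.6 and 88.2 (combined -2.06, deviation -0.48), with deviations of -0.003, -0.17 and -0.38 in its other probe sets. AURKB, a mitotic kinase, read 280.5, 208.6, 176.9 and 81.6 (combined -1.78, deviation -0.69). Of 8 CDK inhibitors and D cyclins 5 rose, against 6.99% of all genes. CDKN1A, the p21 inhibitor, read 691.3, 774.5, 966.7 and 1511 (combined 1.13, deviation 0.48).

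Among 30 textbook targets of HNF4A, 14 were past 2-fold lower with both treatments and none higher, against 7 with the siRNA alone and 2 with TGF-beta alone. Over all genes 7.0%, 1.63% and 2.6% were lower in these comparisons. By limma 14 fell, against 7.63% of all genes. The median combined difference was -0.90, the median sum -0.56 and the median deviation -0.02. DIO1, FABP1 and SOAT2, above, were the lowest. SLC51B, a subunit of the bile acid exporter, read 194.5, 66.6, 99.3 and 34.2 (combined -2.51, deviation 0.01), and SERPINC1, antithrombin, read 521.5, 296.4, 345.0 and 137.7 (combined -1.92, deviation -0.51). MTTP, which loads lipid onto apolipoprotein B, followed TGF-beta, at 198.5, 144.1, 75.8 and 68.4 (combined -1.54, deviation 0.31). The apolipoproteins APOA1, APOB and APOA2 did not pass, at combined differences of -0.02, 0.03 and 0.37. Of 20 drug metabolism genes 10 were past 2-fold lower and none higher, and 9 fell, against 7.0% and 7.63% of all genes. ADH6, an alcohol dehydrogenase, read 534.4, 386.2, 224.1 and 100.0 (combined -2.42, deviation -0.70), and SULT2A1, a steroid sulfotransferase, read 211.6, 136.7, 77.4 and 55.5 (combined -1.93, deviation 0.15).

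**Figure D5:**
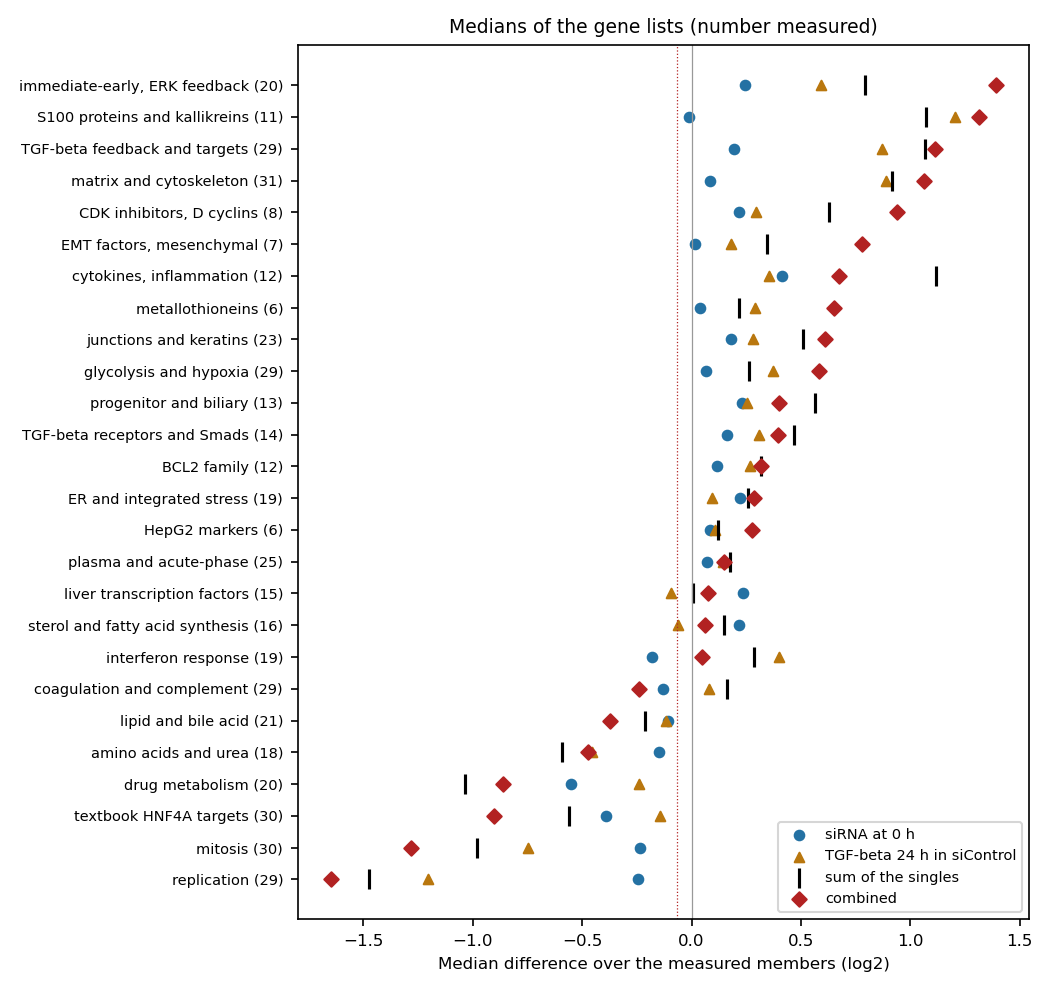
Median log2 difference over the measured members of each gene list (number in brackets) for the siRNA at 0 h, TGF-beta in siControl, their sum and both treatments, with the median combined difference of all genes as a dotted line. Immediate-early genes lie at 1.39 with a sum of 0.79, mitosis genes at -1.28 with a sum of -0.98, and replication genes lowest at -1.65.

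In the counts that follow, 6.99% of all genes rose and 7.63% fell by limma. Of 29 coagulation and complement genes 1 rose and 5 fell, of 25 plasma and acute phase proteins 1 rose and 9 fell, and of 21 lipid and bile acid genes 1 rose and 7 fell. HP, the acute phase protein haptoglobin, read 634.2, 437.7, 1123 and 291.6, so it was above baseline with TGF-beta alone and below it with both (combined -1.12, deviation -1.41). SERPINA3, antichymotrypsin, rose in steps, at 1539, 2767, 5339 and 7198 (combined 2.23, deviation -0.41). Of 18 amino acid and urea cycle genes 5 fell and none rose, with DDC and PRODH2 lowest. Of 16 sterol and fatty acid synthesis genes 2 rose and 2 fell, and of 15 liver transcription factors 1 rose and 1 fell, numbers near the share of all genes. The transcription factor that fell was CEBPA, at 600.6, 740.1, 224.4 and 285.6 (combined -1.07, deviation 0.05), which followed TGF-beta.

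Of 13 progenitor and biliary genes 6 rose and none fell, where 6.99% of all genes rose and 7.63% fell, as for the groups after it. SOX4, a transcription factor, read 889.1, 1284, 1963 and 4039 (combined 2.18, deviation 0.51), and CD24, a surface glycoprotein, read 2147, 4038, 3512 and 6802 (combined 1.66, deviation 0.04). KRT19, a biliary keratin, read 2353, 3200, 3686 and 6589 (combined 1.49, deviation 0.39). Each single treatment gave part of the step in all 3. Of 23 junction and keratin genes 12 rose and 2 fell, the connexin GJB1 and the plakophilin PKP2, whose second probe set gave a combined difference of 0.37 in place of -0.79. Of 7 genes of epithelial-mesenchymal transition 3 rose, S100A4, ZEB1 and CDH2. Vimentin (VIM) stayed close to the floor, at 5.5, 27.4, 14.6 and 25.8. Of 11 S100 proteins and kallikreins 8 rose, with a median combined difference of 1.31 and sum of 1.07. Of 29 glycolysis and hypoxia genes 7 rose, of 19 stress genes 6 rose and 1 fell, of 6 metallothioneins 4 rose, and of 12 BCL2-family and related genes 3 rose. DDIT4, an inhibitor of mTOR signalling, read 179.8, 362.1, 656.4 and 1200 (combined 2.74, deviation -0.14). XBP1, a factor of the unfolded protein response, was high with the siRNA alone, at 932.3, 1912, 1077 and 1138 (combined 0.29, deviation -0.96).

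Of 19 interferon-response genes 2 fell, IFIT1 and IFIH1, and none rose, against 7.63% and 6.99% of all genes. Their median difference was 0.40 with TGF-beta alone and 0.05 with both. Of the 19 deviations 17 were below 0, against 52.6% of all genes. With the 1.5 h reference 14 were, against 5834 of all 11921 genes. IFI27, an interferon-induced mitochondrial protein, read 15.1, 20.7, 86.1 and 23.1, high on the siControl 24 h array alone (combined 0.61, deviation -2.35). Of the 19 members 10 were above the floor on all 4 arrays and over 100 on 1.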

How the data were processed

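Total RNA of 6 HepG2 cultures, 1 array each, was biotin-labelled and put on Affymetrix arrays, per the labels. The deposited values are linear intensities, MAS5 signals computed by the authors with MAS5 5.0 and GCOS, per the submitters' processing notes. The 2% trimmed mean was 100.01 on every array, and detection calls were not used. Such scaling hides a shift common to all genes. Precision is limited by the number of arrays.

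Of 54675 probe sets, 41097 had 1 gene symbol, 1801 had several and 11777 had none. Probe sets with several symbols were left unnamed. The 62 control probe sets served as checks. Entrez identifiers matched 41043 probe sets to RefSeq, with 0 symbols updated. Each of 19775 genes took the probe set with the highest mean signal (10523 had several). Among named genes past 2-fold, 82 of 88 other probe sets (93.2%) had the same sign of the combined difference and 20 of 25 (80.0%) of the deviation.

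Signals under the floor (12.9, the median of all) were raised to it and log2 was taken. limma 3.58.1 in R 4.3.3 (lmFit, eBayes with trend, Benjamini-Hochberg, threshold 0.05) fitted siRNA, both times and the siRNA difference at 24 h on 6 arrays, with 1 residual and 8.4 prior degrees of freedom. On simulated data with 200 of 11921 genes changed it recovered 45% (2-fold) and 97% (4-fold) for the combined difference, with 8 false calls at each size. For the deviation it recovered 25% and 85.5%, with 5 and 4 false calls. The simulated noise was normal and independent between arrays, with each gene's fitted spread around its mean. It held no other treatment effect and no shift of an array, so these shares need not hold for the real arrays.

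Members and the 27 gene lists were chosen with earlier results of these data known, and some genes stand in several lists. Lists are described by counts and medians with no set test. Genes named were the 12 highest and 12 lowest combined differences, the 12 largest deviations of each sign relative to the combined difference with 1 sign under both references, and 6 per direction past 2-fold with neither single. To these came 6 with opposed singles, 5 per direction at the floor, up to 4 members per list by combined difference and 3 by deviation, and SMAD7, SKIL, ID1, MIXL1 and IL11. Except for those at the floor and in lists, they were above the floor on all 4 arrays and over 100 on 1. Of these 188 genes the text gives some, and DPP4, CD3E and members of lists outside the rule were named after their values were seen. Promoters came from RefSeq (GRCh38.p14), found for 147 of the 188.

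Alternatives were other scalings, floors at the 40th, 60th and 75th percentiles, a pseudocount, other probe set and gene filters, folds of 1.5 and 3, the 1.5 h arrays as the reference, limma without the trend and an additive fit. Tables and figures used Python 3.11.15, numpy 2.4.6, pandas 2.3.3 and matplotlib 3.10.9.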

Additional observations from a re-analysis of the deposited data

Results flagged for a closer look

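In 5 of the 188 genes picked for naming the TGF-beta difference at 24 h was past 1.5-fold in both siRNA arms but with opposite signs. The other genes tested were not searched for this. No deviation passed limma's test, so these differences between arms stand untested beyond it, and the cause was not tested. EEF1A2 differed by 2.67 between arms, with -0.65 in siControl and 2.01 in siHNF4A. INHBB differed by -2.12 (0.93 in siControl, -1.19 in siHNF4A). HP differed by -1.41 (0.82 and -0.59), and its limma adjusted p was 0.437. ITIH1, a serum protein that binds hyaluronan, differed by -1.24 or lower (at least 0.64 in siControl, -0.60 in siHNF4A). Its signals were 8.5, 22.4, 20.1 and 14.8. PFKM, a phosphofructokinase, differed by at least 1.51 (-0.77 or lower in siControl, 0.74 in siHNF4A). Its signals, close to the floor, were 22, 14.6, 8.6 and 24.4.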

How the results depend on the processing

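The number of genes past 2-fold in the combined difference, 1568, was 759 with a floor at the 75th percentile, 1032 with probe sets averaged per gene, 972 among genes over 100 on 1 array, and 3871 and 453 at 1.5-fold and 3-fold. Deviations past 2-fold, 716, numbered 1361, 329 and 88 with floors at the 40th, 60th and 75th percentiles, 387 with a pseudocount equal to the floor, 401 with the probe set mean, 134 among the bright genes, and 2295 and 149 at 1.5-fold and 3-fold. In the same order the 151 more than additive genes became 245, 97, 37, 73, 91, 59, 748 and 31, and the 37 less than additive genes 93, 20, 7, 19, 18, 7, 268 and 8. With the 1.5 h arrays as the reference the latter were 58. Limma's calls for the combined difference, 1743, were 1070 with the 75th percentile floor, 958 with the probe set mean, 824 without probe sets ending in _x_at or _s_at, 390 without the filter on dim genes and 585 without the trend. Its calls for the deviation, 0, were 4 with the 40th percentile floor, 24 with the pseudocount, 24 among the bright genes and 639 without the filter on dim genes, where the prior degrees of freedom were 0.663.

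Some signs turned, and beyond what each setting itself changed the cause was not tested. The median deviation of the cytokine list was 0.41 without _x_at and _s_at probe sets and 0.09 with the 1.5 h reference. The median combined difference of the plasma protein list was -0.01 with quantile normalization, -0.04 with the probe set mean, -0.13 without those probe sets, -0.04 among the bright genes and -0.17 with the 1.5 h reference, where its median deviation was 0. The median deviation of the lipid list was 0.05 with the 75th percentile floor and 0.16 with the 1.5 h reference, that of the BCL2 list -0.01 with the probe set mean, and that of the blood, endothelial and fibroblast markers 0.52 with the 1.5 h reference. The median combined difference of the HepG2 markers was -0.01 with the probe set mean and -0.07 without those probe sets. With the 75th percentile floor the deviations of DIO1, CPN2 and ALDH8A1 were 0.13, 0.36 and 1.23. That floor, 80.5, was above the signals of all 3 on the siHNF4A 24 h array. Without the _x_at and _s_at probe sets, where another probe set stood in, the deviations of FABP1 and MASP2 were 0.14 and -1.34. JUNB and GADD45B read 346.7 and 256.0 in siControl at 1.5 h, and with that reference their combined differences were -0.23 and -0.18. With it the deviations of ITIH1 and MX1 were 0.35 and 0.27.

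No paired analysis was possible because each group has 1 array and no replicate numbers. Signals near the floor limit what can be seen, since 302 of 1214 genes with a signal at or under it deviated past 2-fold (24.9%).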
